A study of Mus musculus with 6 samples.

Results

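The genes that join cells to their neighbours were described in RNAseq of immortalized mouse pancreatic fibroblasts: classical and other cadherins, protocadherins, FAT and Dachsous cadherins, claudins, connexins, nectins, junctional adhesion molecules and the plaque proteins beneath them. They were taken by gene symbol, through symbol patterns for the families Cdh, Pcdh, Fat, Dchs, Cldn, Gja, Gjb, Gjc, Nectin, Tjp and Pkp and the single genes F11r, Jam2, Jam3, Dsp, Jup and Mpzl2, with Cdh1 left out. The patterns hold no measured value, but they were set with earlier results of these data known. The patterns found 68 of the 14831 genes listed in the deposited count table, of which 67 had enough counts to be tested. Dsp was not among them and is not analysed here, and the same holds for every gene of the alpha cluster of protocadherins.

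The 6 libraries are 3 labelled WT and 3 labelled KO, the latter with the genotype Gli2-/-;Gli3-/-, on a mixed strain background. Per the study's methods, such lines were made from the pancreas of adult mice with floxed Gli alleles, immortalized, infected with adenovirus carrying eGFP alone (with a dsRed lentivirus) or eGFP and Cre, and sorted by flow cytometry. All wells were grown to confluence in DMEM with calf serum, and each library came from its own well of a plate. The wells are therefore replicates of culture and library preparation rather than of independently made lines, and p values measure only that spread. For 1 gene in 3 libraries against 3, the smallest two-sided p of an exact permutation test is 0.1, so the tests below come from edgeR's quasi-likelihood fit over all genes. Totals ran from 31728420 to 33905521 counts in the WT-labelled libraries and from 32781730 to 41035931 in the KO-labelled ones.

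The targeted genes were read first. Gli2 had 809, 944 and 868 counts in the WT-labelled libraries and 1932, 2316 and 1926 in the KO-labelled ones, and Gli3 had 392, 416 and 398 against 1434, 1637 and 1404. Both were higher in every KO-labelled library, with log2 fold changes of 1.05 and 1.71, so that whole-gene counts go against the labels. Per the study, deletion in its lines was checked by qPCR and western blot. It also reports that its Gli2/Gli3 KO fibroblasts gave no response to Hedgehog stimulation. The counts cover all exons of each gene, so that floxed exons by themselves were not measured. All directions below are those of the labels, and no library was moved to another group.

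Cells adhere through several kinds of junction. In adherens junctions, cadherins of adjacent cells bind one another outside the membrane and hold catenins and actin inside it. Nectins act beside them, and desmosomes use a related design tied to intermediate filaments. In tight junctions, claudins and junctional adhesion molecules seal the space between cells over a scaffold of ZO proteins, and in gap junctions connexins form channels through which small molecules pass. Clustered protocadherins are encoded in gene arrays in which each isoform has its own first exon and promoter. Fibroblasts are known for mesenchymal cadherins and for gap junctions, while most claudins and desmosomal proteins are known from epithelia.

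Of the 67 genes tested, 31 were differentially expressed (46.3%), which here means 1.5-fold or more apart with p under 0.05 after Benjamini-Hochberg adjustment. Over all 14289 genes tested, 17.7% were. By direction, 15 of the 67 were higher in the KO-labelled libraries, where 11.6% of all genes were, and 16 were lower, where 6.1% of all genes were. The members went both ways, and the median log2 fold change over the 67 was -0.06 against 0.00 over all genes. The median size of the change, without its sign, was 0.53 on the log2 scale among the 67 and 0.22 among all genes. Without the fold limit 51 of the 67 passed, where 58.7% of all genes did. Without the 32 clustered protocadherins, 16 of 35 tested genes were differentially expressed, 12 higher and 4 lower.

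Promoter sequence was read for 23 of the 68 genes, in 300-base windows from RefSeq on GRCm38.p6. The clustered protocadherins and Cdh2 were left out of this search, so its counts do not cover them. The 250 bases before the RefSeq transcription start are printed for a gene that was higher in the KO-labelled libraries (Gja1), a gene that was lower (Pcdh19), and the only differentially expressed gene of the 23 whose window held the E-box letters (F11r). E-boxes are the sites to which Snail and Zeb factors are known to bind in cadherin promoters. The windows lie at chr10:56377050-56377299 on the plus strand (Gja1), chrX:133688994-133689243 on the minus strand (Pcdh19) and chr1:171437311-171437560 on the plus strand (F11r), all written 5′ to 3′ along the gene, and capitals mark the E-box. Gene spans given below are from GENCODE M21, whose starts differ from these, and the F11r window runs past its GENCODE start.
Gja1: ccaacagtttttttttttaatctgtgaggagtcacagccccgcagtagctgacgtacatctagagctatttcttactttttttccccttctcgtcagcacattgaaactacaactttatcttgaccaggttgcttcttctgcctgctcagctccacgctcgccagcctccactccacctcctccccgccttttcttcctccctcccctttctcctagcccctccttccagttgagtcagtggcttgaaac
Pcdh19: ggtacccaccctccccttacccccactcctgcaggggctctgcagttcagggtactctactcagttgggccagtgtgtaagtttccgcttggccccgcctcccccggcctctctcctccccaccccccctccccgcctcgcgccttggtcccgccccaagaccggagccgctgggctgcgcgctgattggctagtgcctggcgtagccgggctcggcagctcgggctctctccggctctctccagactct
F11r: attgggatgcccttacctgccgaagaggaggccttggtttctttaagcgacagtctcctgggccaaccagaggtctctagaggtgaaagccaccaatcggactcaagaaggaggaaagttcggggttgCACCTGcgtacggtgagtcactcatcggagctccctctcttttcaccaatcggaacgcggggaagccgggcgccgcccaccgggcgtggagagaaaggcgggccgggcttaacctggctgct
The E-box CACCTG was searched on both strands and stood in 5 of the 23 windows (F11r, Fat1, Nectin2, Pcdh7 and Pkp4) and in 20.2% of 32851 RefSeq windows of the same length. The GLI letters GACCACCCA, also searched on both strands, stood in 0 of the 23 windows and in 0.253% of all windows. A match is a stretch of letters and not a measured site.

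Among the cadherins, the adhesion receptors of adherens junctions, 4 of the 6 tested were higher in the KO-labelled libraries and 0 were lower. Among all genes tested, 11.6% were higher and 6.1% lower. Cdh11 (chromosome 8 from 102632095 to 102785642, GRCm38 with GENCODE M21 gene models), a cadherin of mesenchymal cells, had 5609, 6406 and 6123 counts in the WT-labelled libraries and 13632, 15623 and 12674 in the KO-labelled ones. The groups did not overlap, and the level went from 187 ± 7.25 to 381 ± 5.54 CPM (SD, n = 3 each). This was a log2 fold change of 1.02 (SE 0.03, edgeR adjusted p = 5.95e-11). Cdh3 (chromosome 8 from 106510891 to 106557297), which encodes P-cadherin, had 2492, 2724 and 2605 counts against 6869, 8115 and 6368. All 3 KO-labelled libraries were higher, with 194 ± 0.918 against 80.8 ± 1.13 and a log2 fold change of 1.26 (SE 0.03, edgeR adjusted p = 3.00e-12). Cdh26, an adhesion receptor known from epithelia, went the same way with 944, 1097 and 1083 counts against 2033, 2410 and 1786 and a log2 fold change of 0.81. Cdh24, outside the rule for named genes, made up the 4.

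Cdh2, which encodes N-cadherin, the classical cadherin best known in fibroblasts, passed neither limit. It had 6777, 7445 and 7189 counts in the WT-labelled libraries and 7786, 8913 and 7094 in the KO-labelled ones, or 221 ± 4.56 and 216 ± 3.21 CPM. The groups overlapped, and the 95% interval of the log2 fold change ran from -0.10 to 0.03. Its sign turned under 2 other scalings of the libraries. Per kilobase of exon, Cdh2 stood above Cdh11 and Cdh3 in the WT-labelled libraries (27.4, 21 and 18.4 CPM per kilobase) and below both in the KO-labelled ones (26.8, 42.8 and 44.2). The summed level of the 7 listed cadherins went from 531 ± 14.8 to 863 ± 7.71 CPM. Cdh17 was too low to be tested, with 9, 12 and 9 counts against 8, 11 and 6, and Cdh23 had a log2 fold change of 0.44 and did not pass the fold limit.

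**Figure D1:**
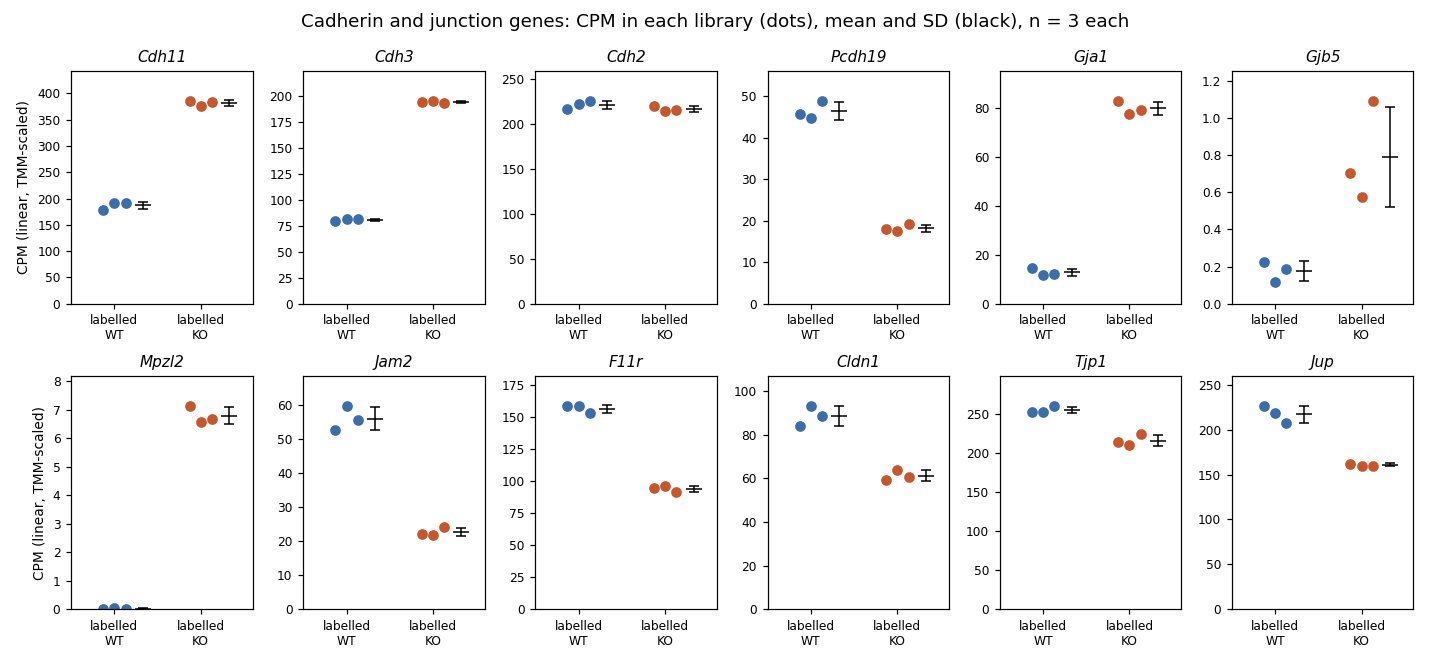
CPM (TMM-scaled, linear axes from 0) of 12 junction genes in each library, blue for labelled WT and red for labelled KO, with the mean and SD in black (n = 3 each). Cdh11, Cdh3, Gja1, Gjb5 and Mpzl2 sit higher in all 3 KO-labelled libraries, Pcdh19, Jam2, F11r, Cldn1, Tjp1 and Jup lower, and the groups overlap for Cdh2.

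The protocadherins outside the clusters, single genes with long extracellular domains known best from the nervous system, gave 1 gene in each direction among 4 tested. Over all genes tested, 11.6% were higher and 6.1% lower. Pcdh19 (chromosome X from 133582860 to 133688987), whose protein is known to act together with N-cadherin, had 1428, 1497 and 1559 counts in the WT-labelled libraries and 637, 729 and 631 in the KO-labelled ones. Every KO-labelled library lay below every WT-labelled library, with 18.2 ± 0.831 against 46.4 ± 2.18 CPM and a log2 fold change of -1.35 (SE 0.05, edgeR adjusted p = 2.35e-10). Pcdh9 was higher but low in both groups, with 29, 14 and 18 counts against 45, 65 and 57 (log2 fold change 1.26, SE 0.25, edgeR adjusted p = 9.34e-04). The most abundant of the 4, Pcdh7, had 421 ± 7.03 CPM in the WT-labelled libraries and 329 ± 7.10 in the KO-labelled ones. Pcdh18 had 85.9 ± 1.69 and 105 ± 1.68 CPM. The groups did not overlap for either gene, and both changes were under the fold limit (log2 fold changes of -0.36 and 0.28).

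FAT and Dachsous cadherins are very large proteins that bind one another between cells and are known for planar polarity and growth control. Dchs2 was higher in the KO-labelled libraries, with 70, 90 and 59 counts in the WT-labelled ones and 112, 153 and 141 in the KO-labelled ones, a log2 fold change of 0.71 (SE 0.16, edgeR adjusted p = 0.00184). Without the third WT-labelled library that change was 0.58, under the fold limit. Fat1 was among the most abundant of all 68 genes. Its CPM values were 665, 739 and 840 in the WT-labelled libraries and 636, 703 and 885 in the KO-labelled ones, so that wells of a group differed from each other by more than the group means did. The 95% interval of the log2 fold change, from -0.23 to 0.21, was wide for a gene of this depth. For Fat4 the CPM values were 30.9, 35.3 and 40.0 against 35.4, 39.4 and 51.7. Its groups overlapped too, with an edgeR adjusted p of 0.0916. In both groups the lowest library of Fat1 was the lowest of Fat4 and the highest of Fat1 was the highest of Fat4. Each is a long transcript, of 15655 and 17165 exon bases. The part of transcript length in this spread was not tested.

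Claudins, the sealing and channel-forming proteins of tight junctions, were at low to moderate levels, with 1 of the 5 tested higher and 1 lower. The shares over all genes tested were 11.6% and 6.1%. Cldn15, which forms paracellular cation channels, had 6, 10 and 5 counts in the WT-labelled libraries and 30, 38 and 31 in the KO-labelled ones, or 0.216 ± 0.0740 and 0.899 ± 0.0472 CPM. That was a log2 fold change of 2.03 (SE 0.28, edgeR adjusted p = 4.83e-05) between levels that both lay under 1 CPM. The counts of Cldn34c1 went from 171, 194 and 190 to 127, 143 and 108, a log2 fold change of -0.74 (SE 0.10, edgeR adjusted p = 2.47e-05). The most abundant claudin was Cldn1, known from epithelial barriers. It had 2635, 3119 and 2830 counts against 2098, 2670 and 1997, or 88.6 ± 4.52 and 61.3 ± 2.50 CPM, with no overlap in CPM and a log2 fold change of -0.53, just under the fold limit. Cldn12 had 29.6 ± 0.621 and 39.4 ± 0.324 CPM (log2 fold change 0.41), also under the limit.

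Among the connexins, Gja1 and Gjb5 were higher in the KO-labelled libraries. Gja1 (chromosome 10 from 56377330 to 56402513), the most widely expressed connexin gene of mammals and the main one of fibroblasts, had 457, 392 and 387 counts in the WT-labelled libraries and 2931, 3236 and 2612 in the KO-labelled ones. Its level went from 12.8 ± 1.56 to 79.9 ± 2.64 CPM, 6.24-fold (log2 fold change 2.64, SE 0.06, edgeR adjusted p = 4.06e-12). Its promoter is printed above. Gjb5 (chromosome 4 from 127354809 to 127358181), known from skin, had 7, 4 and 6 counts against 25, 24 and 36, with no overlap and a log2 fold change of 2.12 (SE 0.37, edgeR adjusted p = 3.31e-04) at low levels. Gjc1, outside the rule for named genes, did not reach the fold limit, with 31.0 ± 1.29 and 32.6 ± 0.780 CPM. Per kilobase of exon, Gja1 stood below Gjc1 in the WT-labelled libraries (1.25 and 6.19 CPM per kilobase) and above it in the KO-labelled ones (7.79 and 6.51).

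Nectins and junctional adhesion molecules are immunoglobulin-domain proteins of adherens and tight junctions. Mpzl2 was grouped with them here, though it is neither, and had the largest increase of all members. Mpzl2 (chromosome 9 from 45039799 to 45054015), a homophilic adhesion molecule also known as epithelial V-like antigen, had 0, 1 and 0 counts in the WT-labelled libraries and 252, 274 and 221 in the KO-labelled ones. Set against 3 counts per library as a floor, the gene was higher by a factor of at least 73.0 in the KO-labelled ones, where it reached 6.80 ± 0.285 CPM. Its exons share 2138 bases with Gm48840 on the opposite strand, and whether the counting used strand is not given in the sources used here. Mpzl3, the next listed gene downstream and a paralog outside the symbol rule, had 38, 59 and 37 counts against 145, 145 and 127, a log2 fold change of 1.45 (SE 0.16, edgeR adjusted p = 6.26e-06).

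Of the 3 junctional adhesion molecules, 2 were lower in the KO-labelled libraries, where 6.1% of all genes tested were. Jam2 (chromosome 16, 84774123 to 84825928) had 1649, 1995 and 1778 counts in the WT-labelled libraries and 783, 907 and 791 in the KO-labelled ones, or 56.0 ± 3.48 and 22.6 ± 1.18 CPM (log2 fold change -1.31, SE 0.05, edgeR adjusted p = 5.99e-10). F11r (chromosome 1 from 171437535 to 171464603), which encodes the family's founding member, had 4941, 5308 and 4878 counts against 3329, 4009 and 3012. All KO-labelled libraries were lower, with 93.8 ± 2.49 against 156 ± 3.07 CPM and a log2 fold change of -0.74 (SE 0.03, edgeR adjusted p = 1.07e-09). Its promoter window, printed above, holds the E-box letters. Jam3 had 26.0 ± 0.446 and 24.4 ± 0.974 CPM, and the interval of its log2 fold change, from -0.20 to 0.01, held no change of the size seen in Jam2 or F11r.

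Of the nectins, the partners of cadherins at adherens junctions, 0 of 3 passed both limits, which 17.7% of all genes tested did. Nectin2 (chromosome 7 from 19716644 to 19750483) came closest. It had 1781, 1714 and 1608 counts in the WT-labelled libraries and 2766, 3307 and 2442 in the KO-labelled ones, or 52.8 ± 3.52 and 77.2 ± 2.82 CPM. The groups did not overlap, and the log2 fold change was 0.55 (SE 0.05, edgeR adjusted p = 6.49e-07), just short of 1.5-fold. Under upper-quartile scaling it was 0.61, and without the first WT-labelled library 0.60, both past that limit. Nectin1 and Nectin3 had log2 fold changes of 0.17 and 0.09 with overlapping groups.

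The plaque proteins on the inner side of the junctions were read next. Tjp1, a tight junction scaffold of the ZO family, had 7940, 8473 and 8297 counts in the WT-labelled libraries and 7577, 8794 and 7394 in the KO-labelled ones, or 255 ± 3.89 and 216 ± 6.79 CPM. Jup, which encodes plakoglobin, shared by desmosomes and adherens junctions, had 217 ± 8.97 and 161 ± 1.36 CPM. For both, every KO-labelled library was lower in CPM and the change did not reach the fold limit (log2 fold changes of -0.24 and -0.43). Pkp2 (0.53) and Pkp4 (-0.03), genes of the plakophilin family, were also under it.

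**Figure D2:**
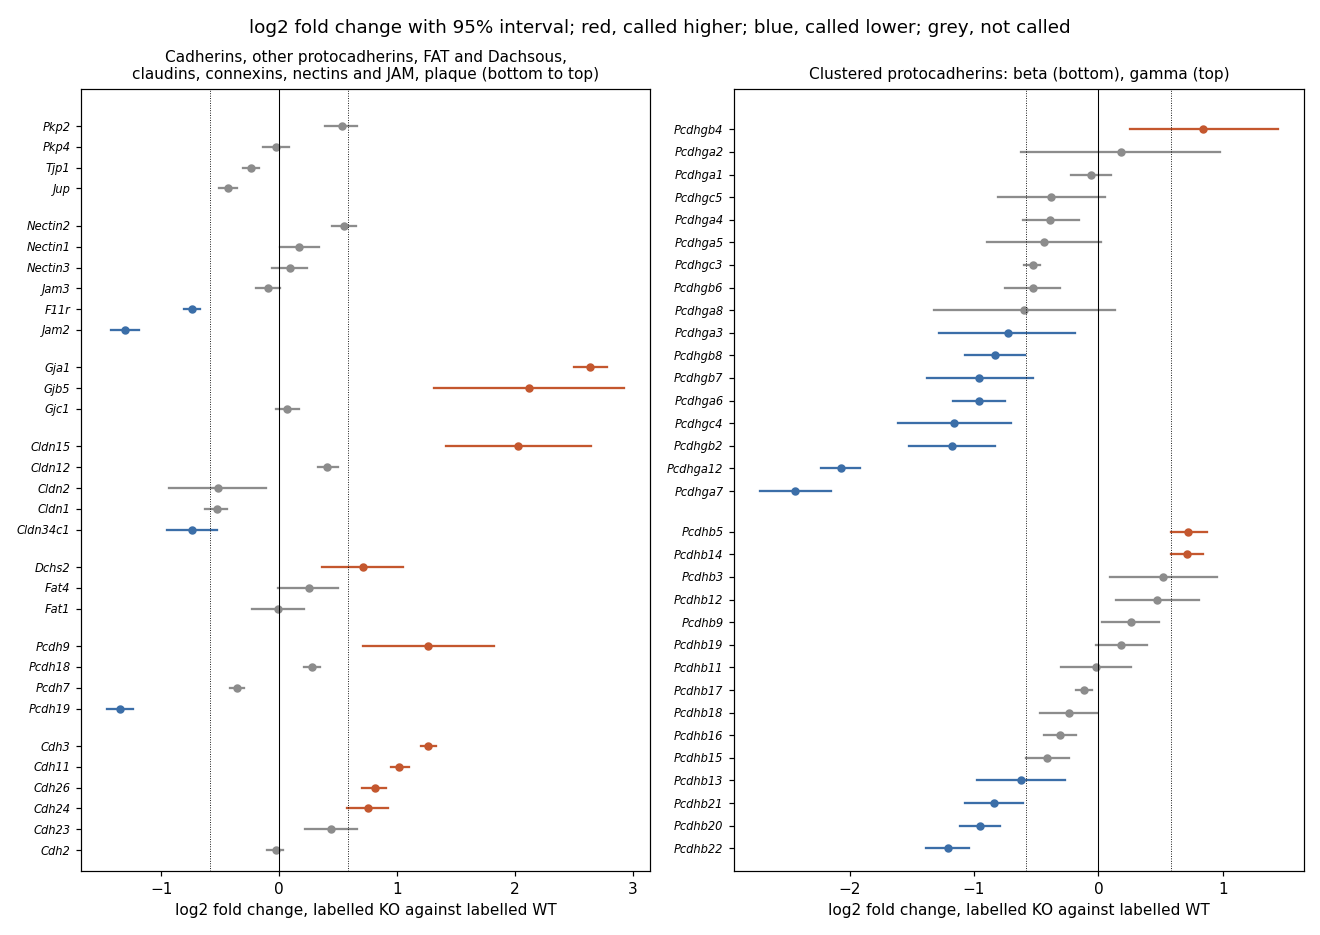
log2 fold change of tested genes in the KO-labelled libraries against the WT-labelled ones with its 95% interval (lines), red for higher, blue for lower and grey for not differentially expressed, with dotted lines at 1.5-fold. The left panel holds the families outside the clusters, from cadherins at the bottom to plaque proteins at the top, and the right panel the beta (bottom) and gamma (top) protocadherins, 15 of 17 gamma genes lying below 0. Mpzl2, whose WT-labelled libraries are at the floor, the untested Cdh17, and genes not reported here are not drawn.

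The clustered protocadherins, whose isoforms are known to give cells combinations of recognition proteins, made up 32 of the 68 genes. All 32 lie on chromosome 18, and 3 were higher and 12 lower in the KO-labelled libraries, where 11.6% and 6.1% of all genes tested were. In the beta array, whose genes are known for single coding exons, 2 of 15 were higher and 4 lower. Pcdhb22 (37517871 to 37524479) had 605, 662 and 660 counts in the WT-labelled libraries and 309, 315 and 317 in the KO-labelled ones, a log2 fold change of -1.21 (SE 0.08, edgeR adjusted p = 4.21e-08). Its neighbours Pcdhb20 (-0.95) and Pcdhb21 (-0.84) were lower too, so that the last 3 genes of the beta array were all lower. Pcdhb21 and Pcdhb22 overlap on the same strand, and 4250 of the 4705 exon bases of Pcdhb21 are its own. Their counts may therefore not be independent. Pcdhb13 (-0.62) was the other lower gene. Pcdhb5 and Pcdhb14 went up, with 269, 304 and 269 counts against 488, 600 and 493 (log2 fold change 0.72) and with 647, 738 and 690 against 1296, 1339 and 1209 (0.71). Pcdhb14 lies next to Pcdhb13, and the pair went in opposite directions. Pcdhb17 alone gave 46.9 to 49.1% of the beta counts in each library, at 130 ± 0.818 and 119 ± 2.18 CPM, and its log2 fold change was -0.12. The beta genes are close paralogs, and reads that fit several of them may have been lost or split in counting.

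In the gamma array, 1 of 17 genes was higher and 8 were lower, where 11.6% and 6.1% of all genes tested were. Of the 17, 15 had negative log2 fold changes. Pcdhga7 (37714764 to 37841873) changed most, with 197, 241 and 229 counts in the WT-labelled libraries and 43, 61 and 36 in the KO-labelled ones, a log2 fold change of -2.44 (SE 0.13, edgeR adjusted p = 6.71e-09). Pcdhga12 (37765580 to 37841873) had 1058, 1202 and 1149 counts against 332, 309 and 277. Its level was 4.21-fold lower, 8.39 ± 0.981 against 35.2 ± 1.26 CPM (log2 fold change -2.07, SE 0.07, edgeR adjusted p = 1.02e-10). For both genes the libraries of the groups lay far apart. Pcdhgb2 and Pcdhgc4 followed with -1.18 and -1.16, and the other lower genes (Pcdhga3, Pcdhga6, Pcdhgb7 and Pcdhgb8) lay between -0.96 and -0.73. Pcdhgb4, next to Pcdhga7 on the chromosome, was the gene that was higher, with 33, 32 and 28 counts against 37, 73 and 80. Its CPM values overlapped between the groups, and the call was lost without the second WT-labelled library (edgeR adjusted p = 0.0566) or without the third labelled KO (log2 fold change 0.56, edgeR adjusted p = 0.0624).

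Most gamma counts belonged to a single gene. Pcdhgc3, one of the last genes of the array, gave 89.5 to 89.6% of the gamma counts in the WT-labelled libraries and 92.5 to 92.8% in the KO-labelled ones. It had 21678, 23954 and 23034 counts against 17589, 19898 and 16397, or 709 ± 15.7 and 490 ± 11.1 CPM. Every KO-labelled library was lower, and the log2 fold change of -0.53 (SE 0.03, edgeR adjusted p = 1.13e-08) fell just short of 1.5-fold. The summed level of the gamma genes went from 793 ± 18.2 to 529 ± 11.9 CPM, and that of the beta genes from 272 ± 5.44 to 249 ± 9.91. All gamma genes share the same last exons in the annotation, and how reads on these were assigned is not given in the sources used here. Exons of Pcdhgc3 also share 1559 bases with BC037039 on the opposite strand, which had a log2 fold change of -0.62. Other gamma genes have such overlaps too, among them Pcdhga7 (536 bases with Gm37165) and Pcdhga12 (422 bases with Gm26672).

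**Figure D3:**
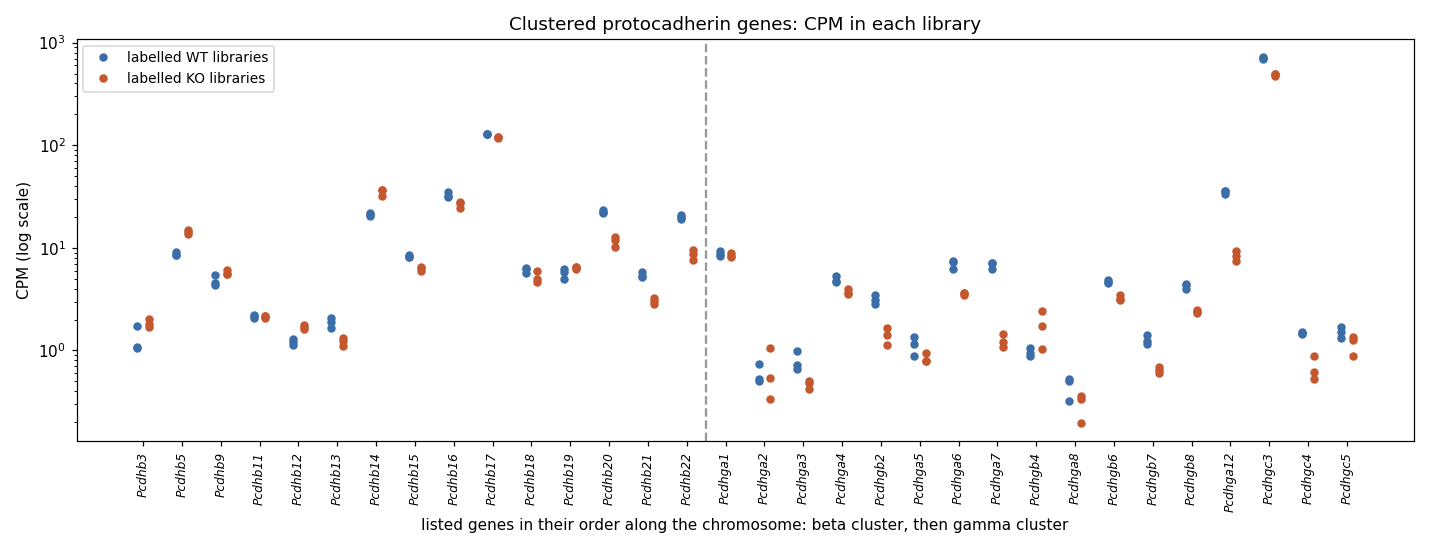
CPM on a log axis of the 32 listed clustered protocadherins in each library, blue for labelled WT and red for labelled KO, in their order along the chromosome, with a dashed line between the beta and gamma arrays. Red points lie well below blue ones at Pcdhb20 to Pcdhb22, Pcdhga7 and Pcdhga12, and Pcdhgc3 stands above all others.

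The members act with proteins outside the symbol rule, and a list of 79 such partners was read beside them. Of these, 51 are in the count table and 50 were tested. Among them 13 were higher and 3 lower in the KO-labelled libraries (32.0% in all, where 17.7% of all genes were). The abundant catenins, which tie cadherins to actin and steady them at the membrane, stayed within the fold limit. Ctnnb1, the gene of beta-catenin, had 765 ± 4.64 and 634 ± 5.81 CPM, Ctnna1 had 783 ± 7.70 and 634 ± 10.0, and Ctnnd1, the gene of a delta-catenin, had 66.8 ± 1.62 and 68.3 ± 3.63. Their log2 fold changes were -0.27, -0.31 and 0.03. Ctnnb1 and Ctnna1 were lower in CPM in every KO-labelled library (edgeR adjusted p = 1.86e-06 and 8.43e-07), and the groups overlapped for Ctnnd1. The 2 catenin genes of low level, Ctnna2 and Ctnnd2, were called. Ctnna2, known from neurons, had 42, 50 and 43 counts against 8, 15 and 5 (log2 fold change -2.44, SE 0.27, edgeR adjusted p = 5.69e-06), and Ctnnd2 had 0, 1 and 0 against 18, 17 and 25, at least 5.99-fold higher.

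Among the partners above the floor in both groups, Pard6b had the largest increase. This member of the PAR polarity complex of tight junctions had 32, 30 and 30 counts in the WT-labelled libraries and 405, 457 and 370 in the KO-labelled ones, a log2 fold change of 3.55 (SE 0.11, edgeR adjusted p = 2.60e-11). Its paralog Pard6g went the other way, with 644, 654 and 624 counts against 371, 435 and 377 (-0.88), as did the scaffold gene Magi2 (-0.90). Cadm4, an immunoglobulin-domain adhesion molecule, had 16, 22 and 9 counts against 144, 178 and 133, a log2 fold change of 3.08 (SE 0.20, edgeR adjusted p = 3.51e-08). Outside the rule for named genes, Patj (2.29), Cgn (1.26), Amot (0.78), the desmosomal Ppl (1.5), Panx1 (1.04), Fjx1 (1.46), Cadm3 (1.97), Tes (0.63), Mpzl3 and Cdh1 made up the other higher partners. Of the 6 Snail, Twist and Zeb factors, which are known to act on cadherin transcription, 0 passed both limits in edgeR's test and 4 had an adjusted p under 0.05 alone, the largest change being that of Zeb1 (-0.53).

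**Figure D4:**
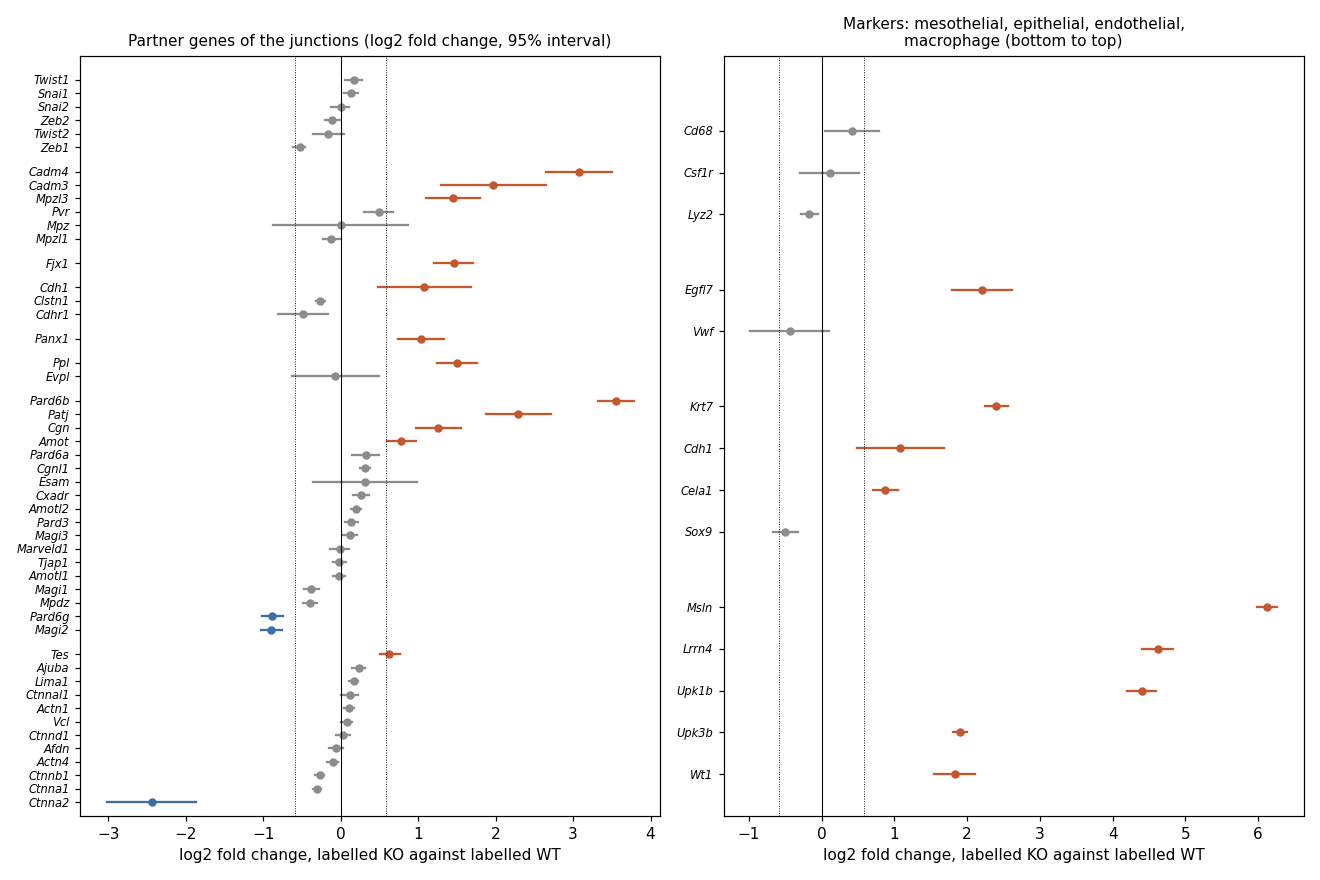
log2 fold change with its 95% interval for the tested partner genes (left) and for markers of mesothelial, epithelial, endothelial and macrophage cells (right, bottom to top), red for higher and blue for lower in the KO-labelled libraries, grey for not differentially expressed, with dotted lines at 1.5-fold. All 5 mesothelial markers lie to the right, and Ctnnd2, at the floor in the WT-labelled libraries, is not drawn.

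Cdh1, the gene of E-cadherin and neighbour of Cdh3 on chromosome 8, was at the edge of detection, with 10, 14 and 9 counts in the WT-labelled libraries and 28, 33 and 19 in the KO-labelled ones (log2 fold change 1.08, SE 0.27, edgeR adjusted p = 0.00450). The labelled cell type was read from its markers. Of 9 fibroblast markers 7 are in the table, Vim, Col1a1 and Col1a2 were abundant in every library, Thy1 was near 0, and Dcn (-1.55), Pdgfra (-0.90) and Pdgfrb (-0.66) were lower in the KO-labelled libraries. All 5 markers of mesothelium (Msln, Upk3b, Upk1b, Lrrn4 and Wt1) were higher in the KO-labelled libraries, where 11.6% of all genes tested were. Their summed level was 22.6 to 25.6 CPM in the WT-labelled libraries and 291 to 293 in the KO-labelled ones. Of 10 epithelial markers 5 are listed, Krt7, Cdh1 and Cela1 were higher, and the sum was 20.2 to 22.7 against 44.0 to 45.5 CPM. Sox9 went the other way within the fold limit, with 8.51 ± 0.104 against 6.03 ± 0.446 CPM, no overlap and a log2 fold change of -0.50 (edgeR adjusted p = 1.73e-04), and Krt8 was too low to be tested. Epcam, Krt18 and Krt19 are not listed. The part of mesothelial or epithelial expression in the changes of Cdh3, Mpzl2, Gja1, Cldn15 and the other members was not tested. In bulk RNA, a change in the number of cells of a type and a change in RNA per cell cannot be told apart.

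Markers of the other cell types that a pancreatic culture could hold were read too. Of 8 endothelial markers 2 are listed, without Pecam1, Cdh5, Kdr and Tek, with a sum of 1.53 to 2.32 CPM in the WT-labelled libraries and 4.36 to 4.63 in the KO-labelled ones, and Egfl7 was higher (log2 fold change 2.20). Of 6 macrophage markers 3 are listed, without Ptprc and Adgre1, 0 passed both limits in edgeR's test, with Lyz2 past the adjusted p alone, and the sums were 39.5 to 45.5 and 38.4 to 40.1 CPM. Schwann and neural markers, with 5 of 7 listed, summed to 8.33 to 8.87 and 13.1 to 15.1 CPM, and Tubb3 was higher. Smooth muscle and pericyte markers, with 3 of 7 listed, summed to 1819 to 1981 and 1891 to 1978 CPM, and Cnn1 and Mcam were higher.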

How the data were processed

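Polyadenylated RNA of 6 wells of immortalized mouse pancreatic fibroblasts was sequenced, 3 labelled WT and 3 labelled KO, and groups came from the genotype label. The authors deposited raw counts of reads per gene, without normalization, with a companion table of log2 CPM from the voom function of limma. Each deposited log2 value was recovered from its count by adding 0.5 and scaling to CPM. The submitters' processing notes name STAR 2.7.2b, featureCounts, limma and GRCm38.p6. Strandedness, annotation and the handling of reads on several genes are not given in the sources used here, which bears on the clustered protocadherins and on genes with opposite-strand overlap. Positions are from GENCODE M21, and 14822 of 14831 identifiers matched it without version.

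The count table was fitted in R 4.3.3 by edgeR 4.0.16 (TMM, filterByExpr, quasi-likelihood F test, Benjamini-Hochberg adjustment over 14289 genes), and a gene was called at an adjusted p under 0.05 and at least 1.5-fold. Fold changes are labelled KO over labelled WT. For genes with no library above 3 counts in 1 of the groups, folds are bounds set by that floor, which is 0.0731 to 0.0946 CPM and covers counting error only. CPM per kilobase used exon bases not shared with other genes on the same strand. The biological coefficient of variation was 3.74%, and all 6 libraries differed by more than sampling noise.

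The members, partner list and marker lists were chosen with earlier results of these data known. Named genes were, in each family, up to 3 called in each direction with the largest change and the 2 with the highest mean CPM, up to 3 partners in each direction, and Gli2 and Gli3. Alternatives were scaling by RLE, by the upper quartile or by totals, other filters and fold limits, DESeq2 1.42.0, limma 3.58.1 on the counts and on the deposited log2 values, leaving out each library in turn, adding genes without a symbol, and leaving out the clustered protocadherins. Some members enter the counts and sums over families but are not reported here by themselves.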

Additional observations from a re-analysis of the deposited data

How the results depend on the processing

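The number of junction genes called stayed at 28 to 31 under the other scalings, filters and tests, and at 29 to 31 when single libraries were dropped. The fold limit moved it most, to 51 without a limit and 15 at a 2-fold limit. Without the clustered protocadherins it was 16, because fewer genes were counted. For the partner genes the count was 37 without a fold limit, 12 at a 2-fold limit and 16 when any single library was dropped. It was 11, of 44 tested, at a minimum of 10 counts in every library. At a minimum of 10 counts in every library, Cldn15, Gjb5 and Mpzl2 were no longer tested. Pcdhga3 was lost under DESeq2, Pcdhb13 under upper-quartile scaling, and these genes, Pcdhgb4 and Dchs2 were lost without single libraries. Of 666 values for 40 named genes, Gli2 and Gli3 under these alternatives, 634 kept direction and call. The log2 fold change of Cdh2 turned from -0.03 to 0.02 under upper-quartile scaling and 0.00 with total counts, and that of Fat1 from -0.01 to 0.04 and 0.02 under the same scalings, to 0.08 without the third WT-labelled library or the first labelled KO, and to 0.02 without the second labelled KO. Over those left-out libraries Fat1 ranged from -0.16 to 0.08. Neither gene was called under any of these, and the cause was not tested. No paired analysis was possible because the labels give library numbers alone, with no replicate number shared between the groups. Under about 10 counts in a library, as for Gjb5, Cldn15 and Cdh17, depth limits what can be said of size. Wells of a line do not measure the spread between lines.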

Other observations

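Of the annotated mouse genes, 165 have a name that fits the symbol rule. Besides the 68 members, 11 of them are in the count table by identifier without a symbol, and 10 of these were tested. Of the 10, edgeR's test called 4 higher and 1 lower in the KO-labelled libraries, where 11.6% and 6.1% of all genes tested were. Pkp1, which encodes a desmosomal plakophilin known from stratified epithelia, had 2, 4 and 0 counts in the WT-labelled libraries and 57, 72 and 46 in the KO-labelled ones (log2 fold change 4.60, SE 0.40, edgeR adjusted p = 6.96e-07). Cdh6, a cadherin of kidney and other tissues, had 4, 5 and 2 counts against 41, 44 and 38 (3.26, SE 0.31, edgeR adjusted p = 1.54e-06). Cdh13, a cadherin anchored by a lipid and without a cytoplasmic tail, had 243, 348 and 273 counts against 510, 606 and 506, or 8.90 ± 1.35 and 14.8 ± 0.499 CPM (0.73, SE 0.09, edgeR adjusted p = 1.80e-05). These 3 genes were higher in every KO-labelled library, as were the cadherins among the members that were called. In the beta array Pcdhb6 was higher (1.41) and Pcdhb2 lower (-1.24), both from low counts. With these genes, 36 of 77 tested were called, 19 higher and 17 lower, in the direction of labels to which whole-gene counts of Gli2 and Gli3 run counter. They were named after their values were seen.

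Summed over all 68 members, the level was 4033 ± 110 CPM in the WT-labelled libraries and 3881 ± 155 in the KO-labelled ones (SD, n = 3 each), and the ranges of 3924 to 4144 and 3776 to 4059 CPM overlapped. By family, the sums of cadherins (531 to 863 CPM) and connexins (113 to 178) were higher in the KO-labelled libraries. Those of claudins (126 to 106), plaque proteins (539 to 459), other protocadherins (554 to 453) and clustered protocadherins (1064 to 779) were lower. So was that of nectins and junctional adhesion molecules with Mpzl2 (320 to 257). These sums are weighted to their abundant genes. In the last of them, F11r (156 to 93.8 CPM) and Jam2 (56.0 to 22.6) were lower, while 4 genes had positive and 3 negative log2 fold changes. The claudin sum is mostly Cldn1 (88.6 to 61.3 CPM), with 2 genes positive and 3 negative. The clustered sum is mostly Pcdhgc3 (709 to 490 CPM). The sum of FAT and Dachsous genes, which is mostly Fat1, was 786 ± 92.0 and 787 ± 138. The sums were not tested, and of single genes 17.7% of all tested were called either way.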
